A study of Bos taurus with 9 samples.

Results

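The genes described here encode proteins that detect foreign RNA or act on RNA in the antiviral state: the oligoadenylate synthetase genes OAS1X and OASL, the interferon-induced tetratricopeptide genes IFIT2 and IFIT5, the double-stranded RNA kinase gene EIF2AK2 (PKR), the helicase genes DHX58 (LGP2) and ZNFX1, and SAMD9. They were found as every probe set whose array annotation gives one of these 8 symbols alone, which yielded 10 of the 24016 probe sets tested, or 8 of 9155 named genes, with a pair of probe sets each for EIF2AK2 and ZNFX1. The study measured 9 Affymetrix arrays, with 3 in each of 3 groups of bovine endometrial stromal and epithelial cells grown together at 3 to 1: LPA+IFNt, LPA and control. LPA+IFNt cells received lysophosphatidic acid (the oleoyl form, 1e-06 M) together with interferon tau (1000 antiviral units, volume not stated), LPA cells received the lipid alone, and control cells received phosphate-buffered saline, all for 6 h in medium with bovine albumin. The cells came from Holstein/Polish Black and White cows at days 2 to 5 of their cycle, and each array held RNA pooled from 3 cows. The labels give 9 cows in all, so pools must share cows, and p-values measure the spread between these pools. A group given interferon tau without LPA was not analysed here, so every value with interferon tau is a value with both agents.

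Interferon tau is the type I interferon by which the ruminant conceptus signals to the uterus. Type I interferons switch on genes whose proteins recognise viral RNA, among them helicases that bind double-stranded RNA, synthetases that make 2'-5'-linked oligoadenylates, and the kinase PKR, which stops translation by phosphorylating the initiation factor eIF2-alpha. IFIT proteins bind RNA and interfere with its translation. In human cells SAMD9 restricts poxviruses, and ZNFX1 has been described as a sensor of double-stranded RNA.

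All values are log2 expression values made by RMA, and a difference of 1 is a doubling. A level of 2.80, which is the top reading of the bacterial trp control (3 probe sets) on any array, is used below as a mark for probe sets near background, since no detection calls were used. All 8 epithelial markers (among them KRT18, CDH1 and EPCAM) and all 8 stromal markers (among them VIM, COL1A1 and DCN) lay above it on every control array. Of 7 measured leukocyte markers 4 did so, with CD3E and CD2 under it on all arrays, and of 6 endothelial markers 0 did so. The summed linear level of the stromal markers was 81859 to 84141 in LPA+IFNt, 97170 to 104353 in LPA and 91897 to 101025 in control, while the epithelial sum was 45135 to 46919, 44615 to 45686 and 44088 to 46346, and the leukocyte sum 206 to 244, 267 to 350 and 234 to 265 in the same order of groups. Of the stromal markers 2 were called lower in LPA+IFNt than in control and 4 lower than in LPA, while 1 leukocyte marker (CD53) was called higher in each. Over all named genes 3.43% were called higher and 3.13% lower than in control, and 3.75% higher and 4.16% lower than in LPA. Of the epithelial markers CDH1 was called higher than in control (0.21, limma adjusted p = 0.0112) and SPINT2 lower than in LPA (-0.45, limma adjusted p = 0.00457). Their part in the results below was not tested. In a mixed culture, a change in the share of cells and a change of RNA per cell cannot be told apart.

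**Figure D1:**
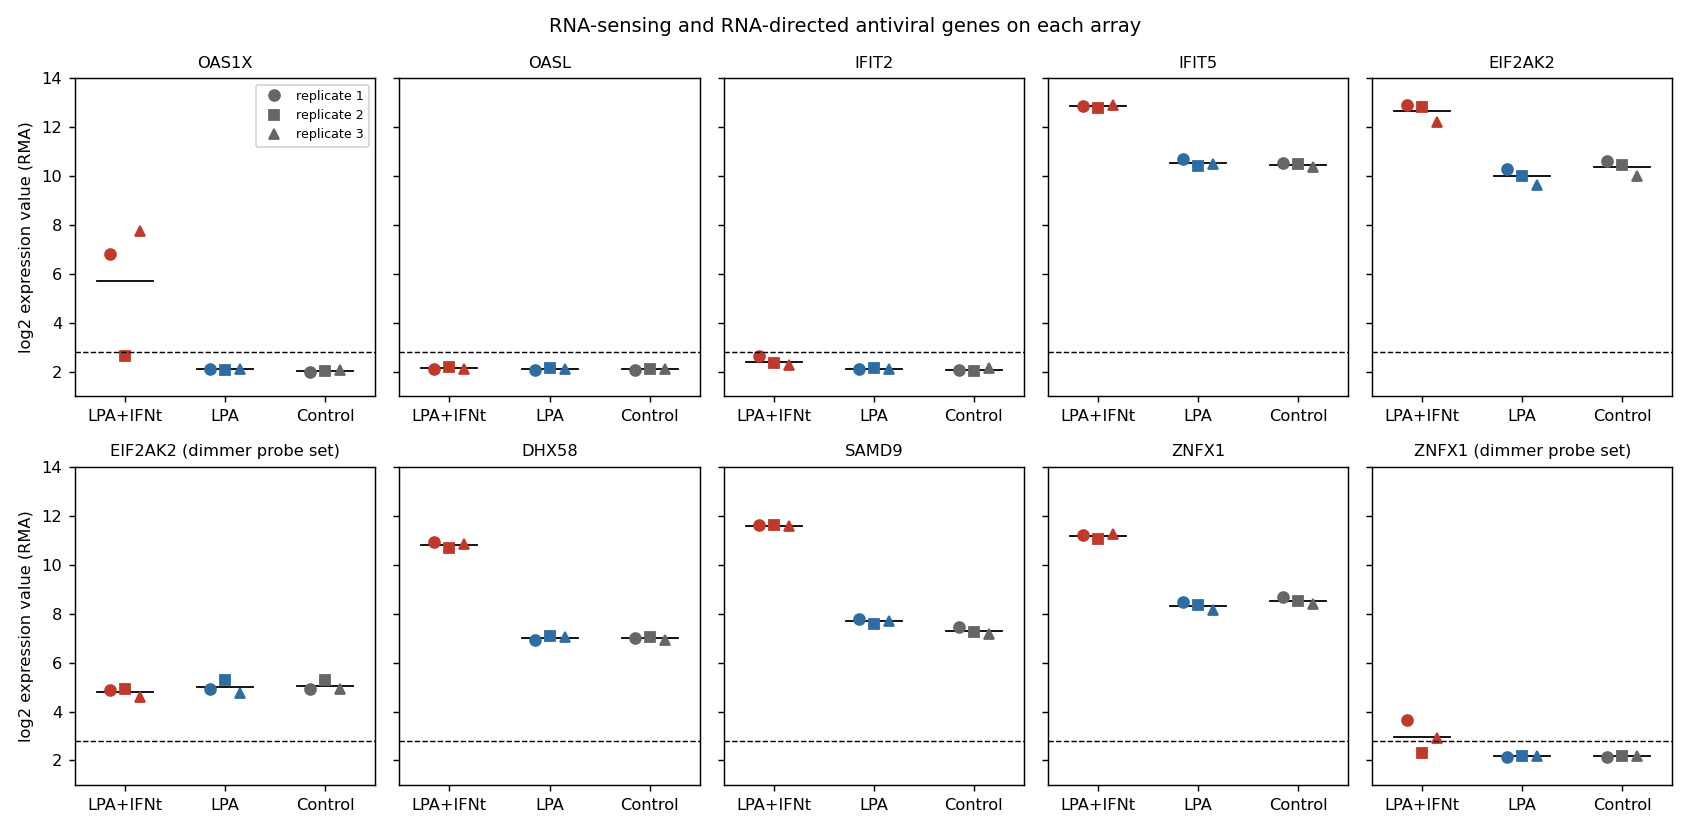
Log2 expression value (vertical axis) of each probe set on the 9 arrays, by group. Points are arrays, with the symbol giving the replicate number, the black bar is the group mean and the dashed line the highest trp value (2.80). LPA+IFNt arrays stand far above LPA and control arrays for IFIT5, DHX58, SAMD9 and the brighter probe sets of EIF2AK2 and ZNFX1, and OAS1X is high on 2 of 3 LPA+IFNt arrays.

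The first comparison asked how these genes stood in cells given LPA and interferon tau, set against control cells. Of the 8 genes, 5 rose and 0 fell (limma, adjusted p under 0.05 over all probe sets), where 3.43% of the 9155 named genes were called higher and 3.13% lower. These were SAMD9, DHX58, ZNFX1, IFIT5 and EIF2AK2, with rises of 4.90-fold to 19.7-fold by the brightest probe set of each gene. The dimmer probe sets of ZNFX1 and EIF2AK2 were not called. The median log2 difference was 2.53 over the 8 genes and -0.01 over all named genes. The groups lay apart for 7 of the 8, all higher, against 11.3% of named genes. Only 5 of the 8 lay above the trp mark on every array. The 7 include IFIT2, which was under the mark on every array. They also include OAS1X, which was under it on all control arrays and above it on only 2 LPA+IFNt arrays. The 8 genes, and the lists below, were chosen with earlier results of these data known. The shares therefore describe the genes and are no independent test of them. OAS1X, IFIT2 and OASL were not called.

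Among the helicases, DHX58, which encodes an RNA-binding relative of RIG-I that lacks its signalling domains, stood at 10.92, 10.68 and 10.87 in LPA+IFNt arrays 1, 2 and 3, against 7.02, 7.05 and 6.93 in control. The 3 treated arrays lay well above the controls, and the arrays of each group lay close together. The difference was 3.83 (SE 0.07, limma adjusted p = 7.59e-08), or 14.2-fold. ZNFX1, by its brighter probe set, stood at 11.22, 11.07 and 11.28 in LPA+IFNt and at 8.69, 8.54 and 8.40 in control, again with no overlap. Its rise was 2.65 (SE 0.10, limma adjusted p = 4.58e-06), or 6.26-fold. The dimmer ZNFX1 probe set read 3.67, 2.31 and 2.91 in LPA+IFNt, where array 2 stayed under the trp mark, and 2.14, 2.17 and 2.19 in control, all under it (difference 0.80, limma adjusted p = 0.203). With both probe sets averaged, the ZNFX1 difference was 1.72 (adjusted p = 0.000718).

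SAMD9 had the largest rise among the 5 called genes. It stood at 11.61, 11.62 and 11.57 in LPA+IFNt, against 7.47, 7.25 and 7.19 in control. The LPA+IFNt arrays agreed to within 0.05, less than the control arrays, which spanned 0.28. The difference was 4.30 (SE 0.08, 95% interval 4.11 to 4.49, limma adjusted p = 6.83e-08), or 19.7-fold.

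EIF2AK2, the gene of PKR, gave different answers by its probe sets. The brighter stood at 12.93, 12.83 and 12.22 in LPA+IFNt and at 10.62, 10.46 and 10.03 in control, so that the lowest treated array still lay above the highest control. The difference was 2.29 (SE 0.25, limma adjusted p = 0.00171), or 4.90-fold. In both groups array 3 was the lowest, and the differences within replicate numbers were close, at 2.31, 2.37 and 2.20. The dimmer probe set read 4.90, 4.91 and 4.61 in LPA+IFNt and 4.91, 5.30 and 4.91 in control, overlapping, with a difference of -0.23 (limma adjusted p = 0.517). The average of both gave 1.03 (adjusted p = 0.0138).

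Of the IFIT genes, IFIT5 encodes a protein that binds the 5' end of RNA, and it stood at 12.89, 12.80 and 12.93 in LPA+IFNt against 10.54, 10.49 and 10.36 in control. All treated arrays lay above all controls, and the rise was 2.41 (SE 0.08, 95% interval 2.23 to 2.59, limma adjusted p = 1.45e-06), or 5.32-fold. IFIT2 read 2.63, 2.35 and 2.27 in LPA+IFNt and 2.08, 2.05 and 2.15 in control. The treated arrays were higher with no overlap, but all 9 arrays lay under the trp mark, so no fold is given (difference 0.32, limma adjusted p = 0.0871). In RefSeq's ARS-UCD2.0 assembly the pair lie on 1 chromosome with 2 coding genes between them, IFIT3 and LOC100139670, and no probe set carried the IFIT3 symbol.

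The synthetase genes did not pass the test. OAS1X, one of the OAS1 genes of cattle, stood at 6.80 and 7.75 on LPA+IFNt arrays 1 and 3 but at 2.63 on array 2, while the control arrays read 2.01, 2.05 and 2.09. Arrays 1 and 3 were 4.01 and 4.95 above the trp mark, and array 2 and all controls were under it. The difference of means was 3.68 (SE 1.14, 95% interval 1.01 to 6.34, limma adjusted p = 0.139), with a within-group SD of 2.72 in LPA+IFNt and 0.04 in control, so a shared spread describes neither group well. Because the control level is under the mark, the size of this difference is not a measured fold: counted from the mark it was 2.93, and with all values floored at the mark it was 2.99 (limma adjusted p = 0.143). Leaving out each array in turn gave 2.67 to 5.22 (limma adjusted p = 6.65e-05 to 0.327), with the highest value and the smallest p without LPA+IFNt replicate 2 and the lowest value without LPA+IFNt replicate 3. With spike-in centring of all arrays the difference was 3.72 (adjusted p = 0.0356). OASL, whose human protein enhances RIG-I signalling, read 2.12, 2.18 and 2.13 in LPA+IFNt and 2.09, 2.10 and 2.13 in control, under the trp mark on all arrays (difference 0.04, limma adjusted p = 0.529).

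The spread of OAS1X was set against the rest of the array. Its range of 5.12 among the LPA+IFNt arrays ranked 1 of 24016 probe sets, where 6 probe sets had a range over 3, and array 2 was the lowest in all 6. Among LPA arrays 22 probe sets had such a range, with array 2 lowest in 19, and among control arrays 1 had, with array 2 lowest. The labels give no feature of replicate 2 that differs from the others.

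**Figure D2:**
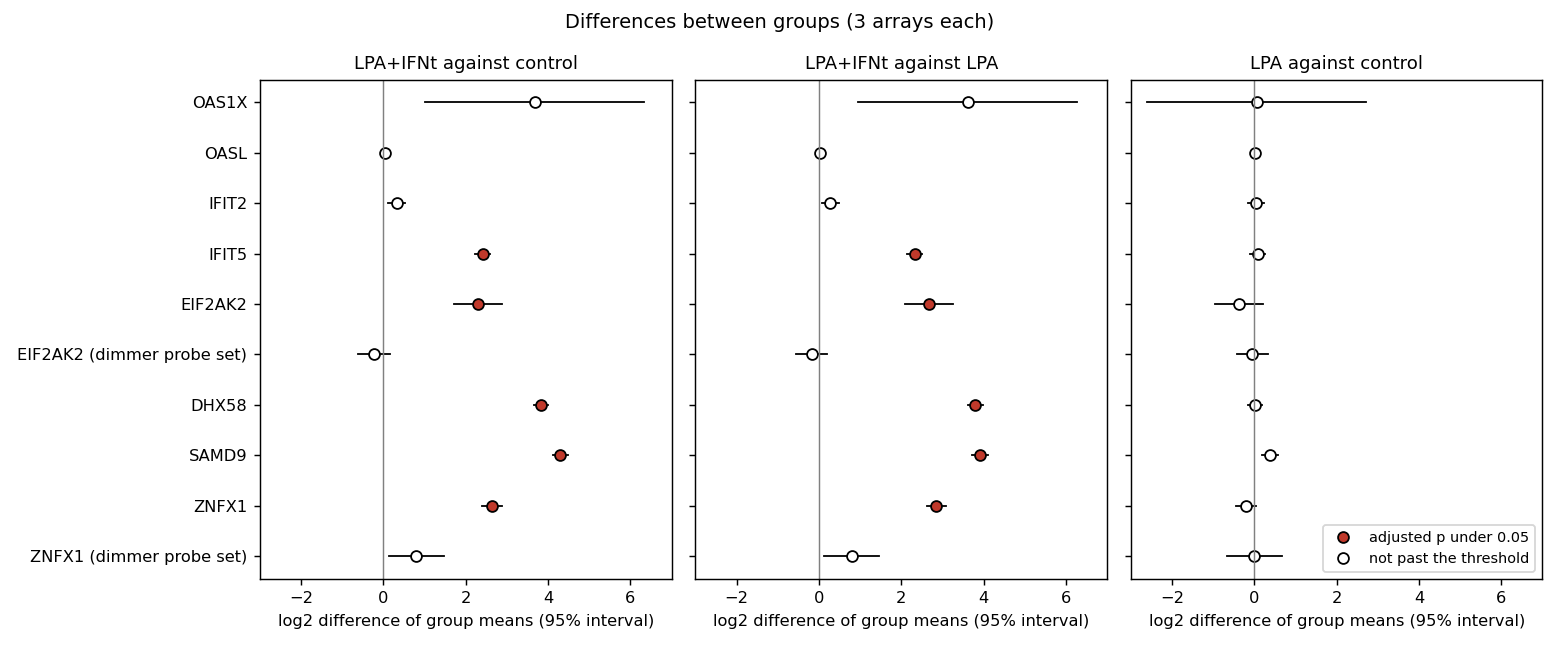
Log2 difference between group means (horizontal axis) for the 10 probe sets in the 3 comparisons, with unadjusted 95% intervals from limma; filled points passed an adjusted p of 0.05. The same 5 genes are filled in both comparisons of LPA+IFNt with another group, the OAS1X interval is the widest, and no point is filled for LPA against control.

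The second comparison set LPA+IFNt against LPA, where only interferon tau differed. It uses the same LPA+IFNt arrays, so its values are not independent of those above. The same 5 genes rose, 5 of 8, where 3.75% of named genes were called higher and 4.16% lower, and 7 of 8 lay apart, against 9.62%. Again the 7 include IFIT2, under the trp mark on every array, and OAS1X, under it on all LPA arrays. The LPA arrays read 6.91, 7.09 and 7.06 for DHX58, which gave a difference of 3.80 (SE 0.07, limma adjusted p = 8.8e-08). For SAMD9 the LPA arrays read 7.80, 7.58 and 7.70, all above the control arrays, and the difference was 3.91 (SE 0.08, limma adjusted p = 1.33e-07). These LPA levels lay far below the LPA+IFNt levels given above, with no overlap.

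For ZNFX1, by its brighter probe set, the LPA arrays stood at 8.48, 8.34 and 8.17, and the difference was 2.86 (SE 0.10, limma adjusted p = 2.93e-06). The dimmer ZNFX1 probe set gave 0.80 (limma adjusted p = 0.191), and the average of both gave 1.83 (adjusted p = 0.000535). For EIF2AK2, by its brighter probe set, the LPA arrays stood at 10.31, 10.00 and 9.65, with a difference of 2.67 (SE 0.25, limma adjusted p = 0.000752). The dimmer EIF2AK2 probe set overlapped between the groups and gave -0.18 (limma adjusted p = 0.635), and the average of both gave 1.25 (adjusted p = 0.00539). IFIT5 read 10.70, 10.44 and 10.51 in LPA, giving 2.33 (SE 0.08, limma adjusted p = 1.87e-06). OAS1X in LPA was uniformly near background, at 2.12, 2.09 and 2.12, and its difference of 3.62, or 2.93 counted from the trp mark, was not called (limma adjusted p = 0.135). Leaving out each array in turn gave 2.61 to 5.17 (limma adjusted p = 7.47e-05 to 0.315), again with the highest value and the smallest p without LPA+IFNt replicate 2. IFIT2 and OASL differed by 0.28 and 0.03 (limma adjusted p = 0.121 and 0.668), with LPA values under the trp mark on every array.

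The third comparison asked whether LPA alone moved these genes. None of the 8 was called (limma, 1 with an unadjusted p under 0.05), where 0.0874% of named genes were called higher and 0.0328% lower. SAMD9 was the one with groups apart, all 3 LPA arrays being above all 3 controls, where 5.35% of named genes lay apart in that direction. Its difference was 0.39 (SE 0.08, 95% interval 0.20 to 0.58, limma adjusted p = 0.194), and within replicate numbers it was 0.33, 0.33 and 0.50. With the replicate number as a block in limma the adjusted p was 0.106. The change of SAMD9 with LPA was thus small beside the 3.91 between LPA+IFNt and LPA.

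By their brighter probe sets, EIF2AK2 and ZNFX1 pointed the other way. Within replicate numbers EIF2AK2 was lower in LPA than in control by log2 differences of -0.31, -0.45 and -0.38, although the groups overlapped, with an SD between pools of 0.33 in LPA and 0.31 in control. The difference of means was -0.38 with a 95% interval of -0.96 to 0.20 (limma adjusted p = 0.823), and with the replicate number as a block the interval was -0.51 to -0.24 (adjusted p = 0.0933). The dimmer EIF2AK2 probe set gave 0, -0.02 and -0.14 within replicate numbers (mean -0.05, 95% interval -0.43 to 0.33). ZNFX1 showed within-number differences of -0.21, -0.20 and -0.23 (mean -0.21, 95% interval -0.45 to 0.03, limma adjusted p = 0.678, and 0.405 with the block). In all, 19.9% of named genes were lower in LPA in all 3 such pairs. For IFIT5 (0.08, 95% interval -0.10 to 0.26) and DHX58 (0.02, 95% interval -0.15 to 0.20) the intervals bound a change with LPA to under 0.3 on the log2 scale. OAS1X, OASL, IFIT2 and the dimmer ZNFX1 probe set were under the trp mark on all LPA and control arrays, so their values say nothing about a change.

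Other genes of RNA sensing and RNA decay were taken from a list of 59 symbols, of which 27 had a probe set of their own. RIGI, IFIH1, OAS2 and IFIT3 were among those not analysed here. In LPA+IFNt against control 8 of the 27 rose and 0 fell, where 3.43% of named genes were called higher and 3.13% lower. The median of the 27 was -0.01, the same as over all named genes. Among RNA sensors and their signalling 4 of 13 rose: IRF7 (1.96, SE 0.20) and IRF3 (0.87, SE 0.07), transcription factors downstream of RNA sensors, TLR3 (1.11, SE 0.18), the endosomal receptor for double-stranded RNA, and TRIM25 (0.52, SE 0.09), a ubiquitin ligase that acts on RIG-I (limma adjusted p from 0.000286 to 0.0131). Of 3 probe sets each, 2 were called for IRF7 and 3 for TLR3, counting either direction. MAVS, the mitochondrial adaptor of the helicase sensors, was named after its values were seen: it stood at 0.31 (limma adjusted p = 0.201), and was called with the replicate block (adjusted p = 0.00655, where 4.43% of named genes were called higher).

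Of RNA decay and RNA-binding genes 4 of 7 rose. PNPT1, a mitochondrial polynucleotide phosphorylase, stood at 13.02, 12.97 and 12.82 in LPA+IFNt and 10.82, 10.96 and 10.80 in control, a rise of 2.08 (SE 0.08, limma adjusted p = 3.08e-06). SHFL (1.27, SE 0.12), known in human cells as an inhibitor of programmed ribosomal frameshifting, the RNA helicase gene MOV10 (1.22, SE 0.15) and N4BP1 (1.18, SE 0.13), whose human protein cleaves viral RNA, followed (limma adjusted p from 0.000783 to 0.00344). Of 7 genes for the substrate and regulators of PKR and for other eIF2 kinases 0 were called, where 3.43% of named genes were called higher and 3.13% lower, and their median was -0.02. The smallest p belonged to PRKRA, which encodes the PKR activator PACT (-0.35, limma adjusted p = 0.276), and to PPP1R15A (0.02, limma adjusted p = 0.648), which lay under the trp mark on all arrays. EIF2S1, the gene of eIF2-alpha, was named outside the rule for named genes. It read 12.35, 12.20 and 12.21 in LPA+IFNt and 12.32, 12.26 and 12.23 in control (difference -0.02, 95% interval -0.16 to 0.13, limma adjusted p = 0.89).

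Against LPA the count was again 8 of 27 higher and 0 lower, where 3.75% of named genes were called higher and 4.16% lower, with a median of 0.09 against 0.01 over all named genes. MAVS stood at 0.43 (limma adjusted p = 0.0672), and was called with the replicate block (adjusted p = 0.00207, where 4.97% of named genes were called higher). PNPT1 (2.09) and IRF7 (2.07) led this comparison too. Of 3 probe sets each, IRF7 and TLR3 had 2 called, counting either direction. In LPA against control 0 of 27 were called (limma, 2 with an unadjusted p under 0.05), where 0.0874% of named genes were called higher and 0.0328% lower.

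**Figure D3:**
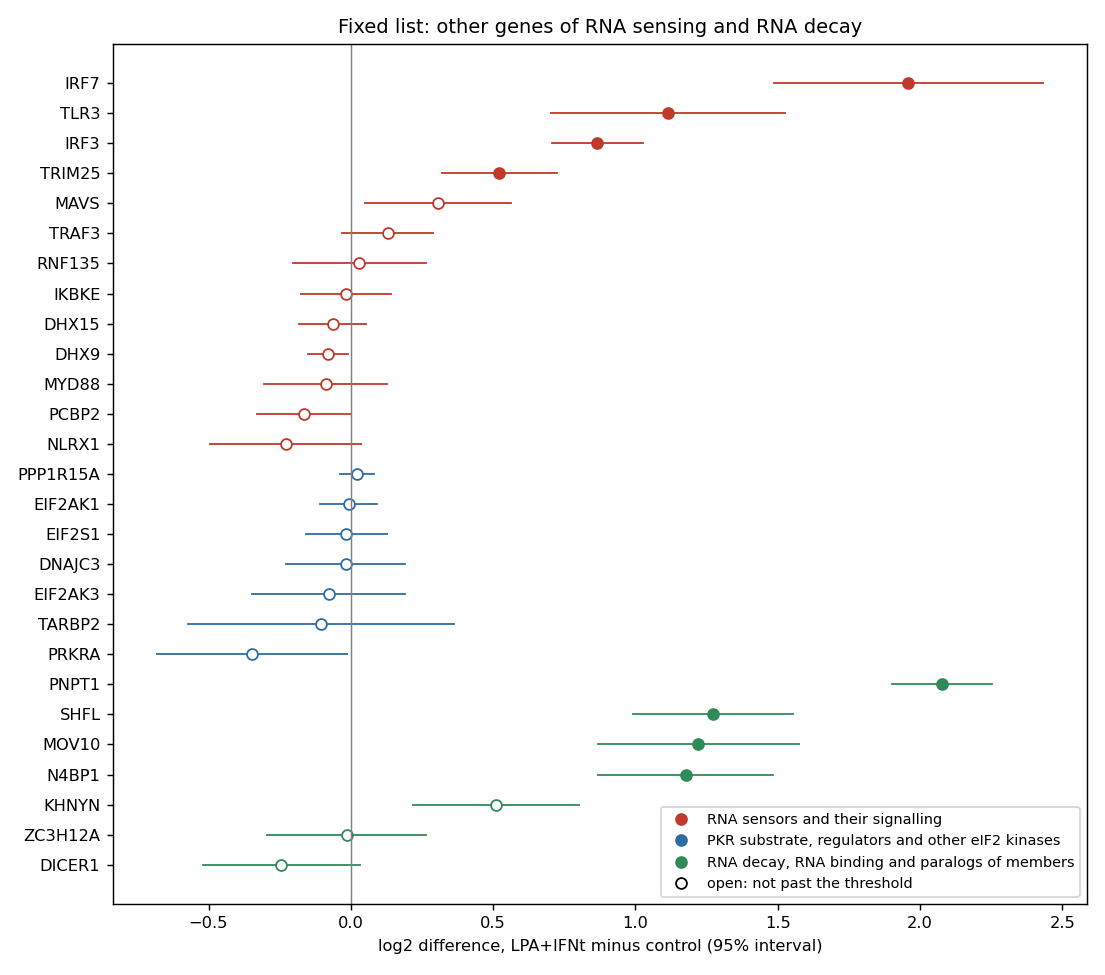
Log2 difference of LPA+IFNt minus control (horizontal axis) with unadjusted 95% intervals for the 27 measured genes of the RNA-sensing and RNA-decay list, coloured by sublist and filled where the adjusted p was under 0.05. The 8 filled points all lie to the right of 0, from TRIM25 (0.52) to PNPT1 (2.08).

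Genes with the most similar profile were sought among the 9147 other named genes, by the root mean square difference over the 9 arrays after each gene was centred on its control mean. The nearest to OAS1X was APOBEC3Z1, a cytidine deaminase gene, at a distance of 0.66 log2 units. It read 6.67, 5.08 and 8.46 on LPA+IFNt arrays 1, 2 and 3, and averaged 3.02 in control. APOBEC3Z1 was picked by its profile on these arrays and is among the 6 probe sets with a range over 3 counted above. Its low array 2 is therefore no separate observation. IFIT5 lay nearest to TDRD7 (0.13), DHX58 to ABHD1 (0.14), SAMD9 to IFI16 (0.23), ZNFX1 to LOC510377 (0.13) and EIF2AK2 to TRIM21 (0.28), with differences of 2.22 to 4.09 in LPA+IFNt against control. Such neighbours were picked by profile on these same arrays, so their similar differences follow from the choice. OASL lay nearest to GC (0.01) and IFIT2 to CYP39A1 (0.06), but OASL and IFIT2 themselves were under the trp mark on all 9 arrays.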

How the data were processed

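Expression was measured on 9 bovine Affymetrix arrays, 1 per pooled RNA sample. Per the submitters' processing notes, the authors used Partek and RMA to make the deposited log2 values, with versions not given in the sources used here. Base 2 was taken from the range of the values. RMA makes array distributions alike, with medians of 4.29 to 4.37, so a change shared by most transcripts would be hidden. Of 24128 probe sets, 112 Affymetrix controls were left out. Gene names came from the platform's annotation, and 13283 of 13318 single-symbol entries matched the RefSeq table of ARS-UCD2.0 by gene identifier, with 0 symbols changed. All 8 members matched. No coordinates are given.

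Groups were compared in R 4.3.3 by the moderated two-sided test of limma 3.58.1 (lmFit, eBayes), on all 9 arrays with no covariate or filter, adjusted by Benjamini-Hochberg over 24016 probe sets within a comparison, with a threshold of 0.05. The procedure was tested on simulated data with independent noise and the same spread in all groups. That test did not cover paired arrays or unequal spread between groups. The brightest probe set stands for a gene in counts. Intervals are unadjusted 95% intervals of the fit. The number of arrays limits the precision. Members, lists, markers and rules for named genes were chosen with earlier results of these data known. The rule names all members, in each list the 4 called genes that changed most, or else the 2 with the smallest p, and the nearest gene by profile. MAVS and EIF2S1 were named outside this rule.

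Arrays of equal replicate number from different groups deviated together from their group means (r of 0.19 to 0.49 in 9 of 9 pairs, and -0.47 to 0.14 in the 18 unequal pairs), so the numbers were taken to pair the samples, from the data and not from a label. The main fit did not use this pairing, and only the replicate block did. The alternatives were a replicate block, a filter on dim probe sets, centring on medians or spike-ins, a floor at the trp level, no moderation, a trended prior, only the groups compared, averaged probe sets, and each array left out.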

Additional observations from a re-analysis of the deposited data

How the results depend on the processing

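Under the 18 alternatives the count of members called stayed at 5 or 6 of 8 in both comparisons with interferon tau and at 0 in LPA against control, and that of the RNA-sensing list at 7 to 9, 7 to 9 and 0. The 10 called member differences kept their call and direction in all 180 recomputations. Leaving out each array in turn, counts were 5 to 6 for members in either comparison and 7 to 9 (against control) and 8 to 9 (against LPA) for the list. With the replicate block, EIF2AK2 stood at 2.29 (adjusted p = 1.87e-05) against control, and no member's call changed. Calls appeared for OAS1X with spike-in centring (3.72, limma adjusted p = 0.0356, against control and 3.64, limma adjusted p = 0.0347, against LPA). They also appeared for OAS1X without LPA+IFNt replicate 2 (5.22, limma adjusted p = 6.65e-05, against control and 5.17, limma adjusted p = 7.47e-05, against LPA). IFIT2 was called against control with a trended prior (0.32, limma adjusted p = 0.0388) or without LPA+IFNt replicate 1 (0.21, limma adjusted p = 0.046). The dimmer ZNFX1 probe set was called without LPA+IFNt replicate 2 (1.13 against both groups, limma adjusted p = 0.027 and 0.0272). The cause was not tested. In LPA against control, 9 differences near 0 turned sign, none of them called: OASL with median centring (-0.00103), DHX58 without Control replicate 3 (-0.0107) or LPA replicate 2 (-0.0107; range over arrays left out -0.0107 to 0.0780), the dimmer EIF2AK2 probe set without Control replicate 2 (0.0784) or LPA replicate 3 (0.0549; range -0.198 to 0.0784), and the dimmer ZNFX1 probe set with spike-in centring (0.0235) or without Control replicate 2 (0.000662), Control replicate 3 (0.0128) or LPA replicate 1 (0.00665; range -0.0154 to 0.0128). OASL and IFIT2 gave no value with the floor or the filter on dim probe sets. Over all probe sets, LPA+IFNt against control had 595 higher and 687 lower calls, or 630 and 481 with spike-in centring, and LPA against control had 12 and 5, or 23 and 26. The LPA against control counts moved with the array left out: they were 129 and 40 without LPA replicate 2, and 0 and 0 by limma without LPA replicate 1 or without Control replicate 2 (1739 and 1520 probe sets with an unadjusted p under 0.05), and 6 to 15 higher and 2 to 13 lower when each of the other arrays was left out.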
